A study of Mus musculus with 6 samples.

Results

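Collagens are the triple-helical proteins that make up most of the extracellular matrix, and the genes described are 37 mouse collagen chains, Col1a1 to Col27a1. All 37 were measured, of 18193 genes in all. They were chosen by name, and each had a probe set of the array assigned to no other gene. The rule used no measured value, but the members were chosen with earlier results of these data known. Some further chains with such a probe set were not among them and are given at the end. Each was represented by its brightest probe set over the 6 arrays. The chains fall into 10 fibrillar, 8 basement membrane and 19 other collagens.

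Collagen chains assemble in threes in the endoplasmic reticulum, where prolines and lysines are hydroxylated, and are then secreted, trimmed and cross-linked. Fibrillar chains build the cable-like fibrils of connective tissue, for which fibroblasts are the best known source. Type IV chains form the sheet-like network of basement membranes under epithelia and around vessels. In lung, the Col4a1 and Col4a2 network is widespread, while the network of Col4a3, Col4a4 and Col4a5 is a feature of the alveolar wall.

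The RNA came from tumours of a mouse model of a neuroendocrine carcinoma, small cell lung cancer (SCLC), in which the genes given as Rb, p53 and p130 are inactivated after infection with an adenovirus that carries Cre. Tumours were taken 6 to 7 months later from untreated animals on a mixed C57BL/6;129Sv/J background, and all samples share this genotype, so no sample is of normal lung. Tumour-propagating cells (TPCs) were sorted from mice 1127, 920 and 0107, and non-TPCs were sorted from the same 3 mice, on the surface proteins CD24, CD44 and EpCAM. The sources used here give neither the sort gates, nor the promoter that drives Cre, nor the ages of the animals. Expression was read on 1 array per fraction and mouse, as RMA levels on a log2 scale, on which a difference of 1 is a doubling of signal. All differences are TPC minus non-TPC. The median level of all genes was 6.91, and the first quartile of the probe sets lay between 4.52 and 4.65 in the 6 arrays. The array gives no detection call, so a level near or below that quartile may hold little specific signal. Genes below the median level are called dim. The number of arrays, 3 per fraction, limits the precision. The 8 neuroendocrine markers measured each had a mean level over the arrays above that of the median gene. Syp, a protein of synaptic vesicles, was at 8.02, 7.67 and 6.76 in TPCs and 7.16, 7.42 and 6.72 in non-TPCs of mice 1127, 920 and 0107, so both fractions of mouse 0107 were below the median gene. Insm1, a neuroendocrine transcription factor named after its values were seen, was at 11.14 to 12.36 in TPCs and 10.61 to 11.24 in non-TPCs, and Chga, a protein of secretory granules, was at 10.53 to 11.91 in TPCs and 9.67 to 11.22 in non-TPCs.

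Promoter sequences are shown for 3 members whose values carry the results below. Col3a1 and Col1a2 were among the chains with the lowest values in TPCs relative to non-TPCs, and Col8a1 was the brightest chain and stood higher in TPCs. Each run is the 250 bases before the annotated RefSeq start, 5′ to 3′ on the strand of the gene, in build GRCm38.p6. Capitals mark matches to CCAAT, to TATAAA or to GGGCGG on either strand. The Col3a1 run is chr1:45311288-45311537 (plus strand), that of Col1a2 is chr6:4505368-4505617 (plus strand) and that of Col8a1 is chr16:57754738-57754987 (minus strand).
Col3a1: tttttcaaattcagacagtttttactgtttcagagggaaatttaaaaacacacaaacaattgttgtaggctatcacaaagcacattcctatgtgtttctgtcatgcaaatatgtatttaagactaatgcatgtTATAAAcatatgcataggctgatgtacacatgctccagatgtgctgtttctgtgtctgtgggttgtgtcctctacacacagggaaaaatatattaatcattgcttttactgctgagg
Col1a2: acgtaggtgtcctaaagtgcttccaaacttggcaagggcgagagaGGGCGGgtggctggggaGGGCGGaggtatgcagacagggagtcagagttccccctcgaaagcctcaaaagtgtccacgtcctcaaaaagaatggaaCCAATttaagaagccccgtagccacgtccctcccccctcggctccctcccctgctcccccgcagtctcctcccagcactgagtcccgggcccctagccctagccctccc
Col8a1: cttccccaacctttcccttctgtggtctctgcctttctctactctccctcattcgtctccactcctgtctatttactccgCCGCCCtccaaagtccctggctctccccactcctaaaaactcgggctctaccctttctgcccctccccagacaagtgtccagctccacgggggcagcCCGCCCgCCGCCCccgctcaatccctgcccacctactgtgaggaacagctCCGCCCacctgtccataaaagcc

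The Col3a1 window held 1 TATAAA match, 117 to 112 bases before the start, and no match to the other motifs. The Col1a2 window held 2 GGGCGG matches and 1 CCAAT match, with the CCAAT match 109 to 105 bases before the start. In the Col8a1 window, 4 matches to GGGCGG lay on the opposite strand. Of 32851 windows of this length in the RefSeq table, 33.8% held CCAAT, 12.4% held TATAAA and 32.7% held GGGCGG on either strand. The table held 33 windows for 30 of the 37 members. Counting a member if any of its windows held the motif, 12 had CCAAT, 5 had TATAAA and 18 had GGGCGG. These are counts of genes, whereas the percentages are of windows. These matches are a description of letters, and no binding was measured.

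Col4a1 and Col4a2 lie head to head on opposite strands, and their annotated starts overlap by 22 bases. This is shown because both genes were lower in TPCs of every mouse. The run is chr8:11312801-11312830 on the plus strand, in GRCm38.p6, with the overlap in capitals. Col4a2 is read from left to right and Col4a1 from right to left.
Col4a1/Col4a2: cggcAGTGCGCGGGCGGCGTCTCCAAgggg

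Across the 37 chains, a subset stood lower in TPCs, none stood much higher, and no single chain passed the test. Mean differences of -1 or less were found for 9 members, or 24.3%, against 2.74% of all genes. These were Col1a2, Col3a1 and Col5a2 among the fibrillar chains, Col4a1 and Col4a2 in the basement membrane, and Col6a1, Col6a3, Col14a1 and Col23a1 among the others. No member had a mean difference of 1 or more. In limma with Benjamini-Hochberg adjustment over all genes, 0 of 37 members had an adjusted p under 0.05, against 0.0605% of all genes in either direction, and the smallest adjusted p was 0.275, for Col4a1. With the mouse as a replicate block it was 0.0975. Before adjustment, 6 members were lower at p under 0.05, or 16.2%, against 4.35% of all genes, and 0 were higher, against 2.12% of all genes. With the replicate block these counts were 9 (24.3%, against 6.23% of all genes) and 1 (2.7%, against 3.62%).

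All 3 TPC arrays lay below all 3 non-TPC arrays for 10 members, or 27.0%, against 5.91% of all genes. All 3 lay above for 2 members, the cartilage collagen Col9a1 and the hemidesmosome collagen Col17a1, or 5.41%, against 6.71% of all genes. Col17a1 was at 3.19 to 3.71 in all arrays, below the first quartile, and a second Col9a1 probe set had the other sign (-0.16). Lower in TPCs of all 3 mice were 14 members, or 37.8%, against 13.8% of all genes. Higher in all 3 were 7, or 18.9%, against 19.7% of all genes. The median difference over the 37 was -0.10, beside 0.04 for all genes, so most chains differed little. By class the median was -0.36 for fibrillar, -0.16 for basement membrane and -0.05 for other collagens. The order of the classes depended on the arrays. With mouse 1127 left out the fibrillar median was -0.16 and the basement membrane median -0.29, and with only its non-TPC array left out they were -0.10 and -0.26. The basement membrane median was -0.08 when the non-TPCs of mouse 920 were left out. Fewer cells of a type and less RNA per cell cannot be told apart in such bulk samples.

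**Figure D1:**
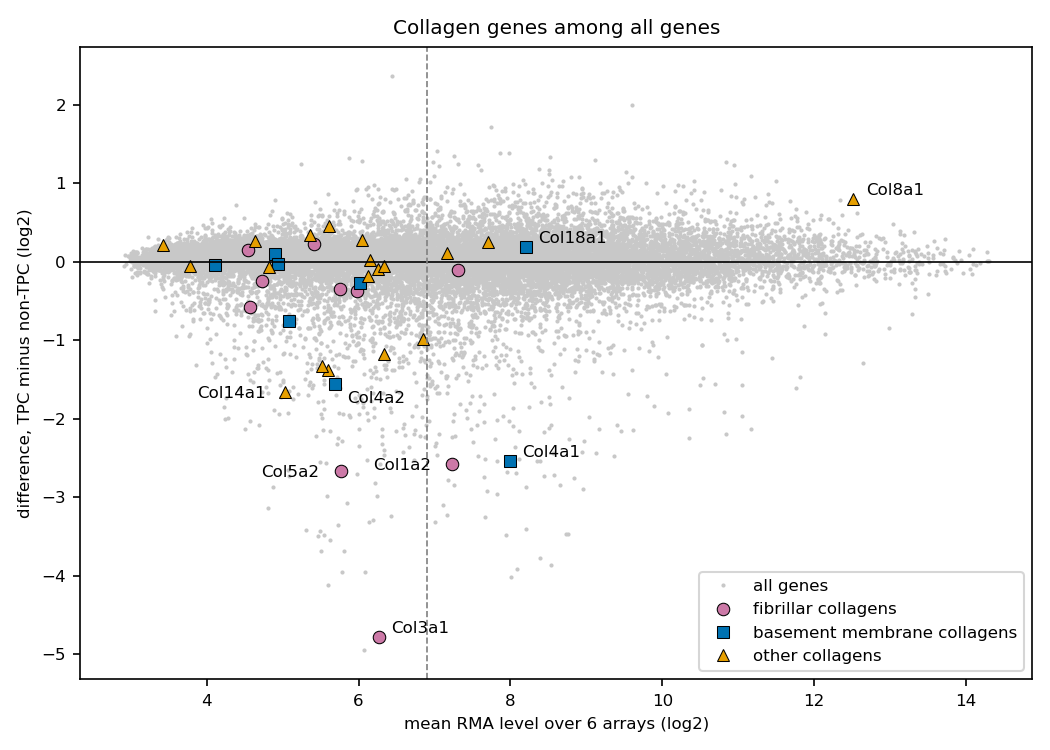
Mean difference (TPC minus non-TPC, log2) against the mean level over 6 arrays (log2), with a grey point for each of 18193 genes and the 37 collagens marked by class; the dashed line is the median level of all genes, 6.91. The low members reach -4.79 (Col3a1), while Col8a1 lies alone at the bright end at 12.51 with a difference of 0.79.

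Among fibrillar collagens, Col3a1, Col1a2 and Col5a2 stood lower in TPCs of every mouse at their brightest probe sets, in the same order of mice. Col3a1 forms the homotrimer of type III collagen, which is abundant in distensible tissues such as lung and vessel wall. Its level was 3.98, 3.94 and 3.69 in TPCs of mice 1127, 920 and 0107, against 11.85, 9.01 and 5.12 in their non-TPCs. The TPC arrays were uniformly dim, and the fractions did not overlap. The mean difference was -4.79 (SE 1.52, limma adjusted p = 0.622), the 2nd lowest of all genes, and within mice it was -7.87, -5.07 and -1.42. The spread of the non-TPC arrays (SD 3.38, against 0.16 in TPCs, n = 3) exceeded that of any other chain whose mean difference was -1 or less. With the non-TPC array of mouse 0107 left out, the difference was -6.56 and passed (adjusted p = 0.0418). Leaving out both arrays of mouse 1127 gave -3.25, and leaving out its non-TPCs gave -3.19 (adjusted p = 1 and 0.751).

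Col1a2 encodes the alpha 2 chain of type I collagen, the main collagen of fibrous tissue. In TPCs it was at 5.92, 5.97 and 5.96 in mice 1127, 920 and 0107, against 11.11, 8.08 and 6.38 in non-TPCs. The TPC arrays were nearly equal (SD 0.02) and none reached the lowest non-TPC array. Its mean difference was -2.58 (SE 1.08, limma adjusted p = 0.769), a 5.96-fold lower signal, which ranged from 1.34-fold in mouse 0107 to 36.6-fold in mouse 1127. Without both arrays of mouse 1127 the difference was -1.27, and without its non-TPC array alone -1.28.

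Col5a2, a chain of the type V collagen that nucleates type I fibrils, is the chromosomal neighbour of Col3a1. Its level was 4.29, 4.09 and 4.91 in TPCs, against 8.64, 7.17 and 5.48 in non-TPCs of mice 1127, 920 and 0107. The fractions did not overlap, and the gap was again widest in mouse 1127. At a second, dimmer Col5a2 probe set they overlapped, with differences of -1.98, -1.50 and 0.26 in these mice. The mean difference was -2.66 (SE 0.74, adjusted p = 0.553), with an adjusted p of 0.0542 when the non-TPCs of mouse 0107 were left out. It was -1.82 when mouse 1127 was left out, and -1.89 when only its non-TPCs were (adjusted p = 1 and 0.691).

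Other fibrillar chains did not share this size of mean difference at their brightest probe sets. Col1a1, the partner of Col1a2 in type I collagen, is given here after its values were seen. It was dim, at 5.52, 5.52 and 5.69 in TPCs, against 6.58, 5.60 and 5.61 in non-TPCs of mice 1127, 920 and 0107. Only the non-TPCs of mouse 1127 stood apart. Its mean difference was -0.35 with a 95% interval of -1.02 to 0.32, and its second probe set, at a mean of 3.86, differed by 0.02. Col27a1, a fibrillar collagen known from cartilage, was above the median level and nearly flat, at 7.24, 7.28 and 7.24 in TPCs and 7.34, 7.32 and 7.44 in non-TPCs of mice 1127, 920 and 0107. Its TPC and non-TPC arrays did not overlap, but the difference was only -0.11 (95% interval -0.39 to 0.17, adjusted p = 0.912). Col11a1, a minor fibrillar chain of cartilage, was also singled out after its values were seen. It was at 4.24, 4.08 and 4.54 in TPCs and 4.05, 4.10 and 6.43 in non-TPCs of mice 1127, 920 and 0107, so the non-TPCs of mouse 0107 stood alone above the other arrays. A second Col11a1 probe set differed by -2.73 in that mouse and by no more than 0.09 in size in the others. Col2a1, Col5a1, Col5a3 and Col11a2 had mean differences between -0.37 and 0.22. Dimmer Col5a1 probe sets, at means of 5.44 and 4.42, differed by 0.07 and -0.81. The dimmest differed by -2.12, -0.04 and -0.28 in mice 1127, 920 and 0107.

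Among basement membrane collagens, Col4a1 and Col4a2 were lower in TPCs of every mouse, with the largest gap in mouse 0107 rather than 1127. Their products form the common type IV network of vessels and epithelia. Col4a1 was at 7.09, 6.42 and 6.64 in TPCs, against 9.82, 8.08 and 9.88 in non-TPCs of mice 1127, 920 and 0107. Every TPC array lay below every non-TPC array. The mean difference was -2.54 (SE 0.50, limma adjusted p = 0.275), a 5.81-fold lower signal, and within mice the fold was 3.15 to 9.41. Col4a1 passed with the non-TPCs of mouse 920 left out (difference -3.13, adjusted p = 0.0282), and its adjusted p was 0.0899 without both arrays of that mouse. The other leave-outs gave an adjusted p of 0.202 to 1. A dimmer Col4a1 probe set differed by -0.91.

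Col4a2 was at 5.47, 4.58 and 4.68 in TPCs, against 6.89, 5.21 and 7.31 in non-TPCs of mice 1127, 920 and 0107. It was lower in TPCs within each mouse, but the non-TPCs of mouse 920 lay below the TPCs of mouse 1127. The mean difference was -1.56 (SE 0.56, limma adjusted p = 0.68), and within mice it was -1.42, -0.63 and -2.63. Col4a1 showed the same order of mice, with -2.73, -1.65 and -3.23.

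The remaining type IV chains were dim. Col4a4 and Col4a5 each had a probe set with a gap above 1 in size that was widest in mouse 920. They were named after their values were seen. Col4a4, an alveolar and glomerular chain, was at 4.69, 4.79 and 4.66 in TPCs and 5.20, 6.47 and 4.73 in non-TPCs of mice 1127, 920 and 0107. Its difference was -1.68 in mouse 920 and its mean difference -0.75 (adjusted p = 0.868). Dimmer Col4a4 probe sets differed by -0.04, -0.13 and 0.09 and by -1.02, -0.72 and -0.21 in mice 1127, 920 and 0107. The order of mice for Col4a4 thus depends on the probe set chosen. Col4a5, on the X chromosome beside Col4a6, differed by -0.04 at its brightest probe set. Its second probe set, almost as bright on average, was at 3.16, 3.42 and 3.23 in TPCs and 4.803, 6.17 and 3.65 in non-TPCs of mice 1127, 920 and 0107. That probe set differed by -1.64, -2.75 and -0.42 in these mice, so the value of Col4a5 depends on the probe set chosen. Tested on its own it had a limma adjusted p of 0.794 over all probe sets. Col4a3 and Col4a6 had mean differences of 0.10 and -0.04.

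The multiplexins Col18a1 and Col15a1, basement membrane zone collagens whose ends are cleaved into inhibitors of vessel growth, did not share the size of difference of Col4a1 and Col4a2. Col18a1 was bright, at 8.73, 8.20 and 7.95 in TPCs and 8.35, 8.28 and 7.70 in non-TPCs of mice 1127, 920 and 0107. The fractions overlapped, and the difference of 0.18 (95% interval -0.45 to 0.82, adjusted p = 0.934) took the other sign, -0.03 and -0.02, when the TPCs of mouse 1127 or the non-TPCs of mouse 0107 were left out. Col15a1 had a mean difference of -0.27.

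**Figure D2:**
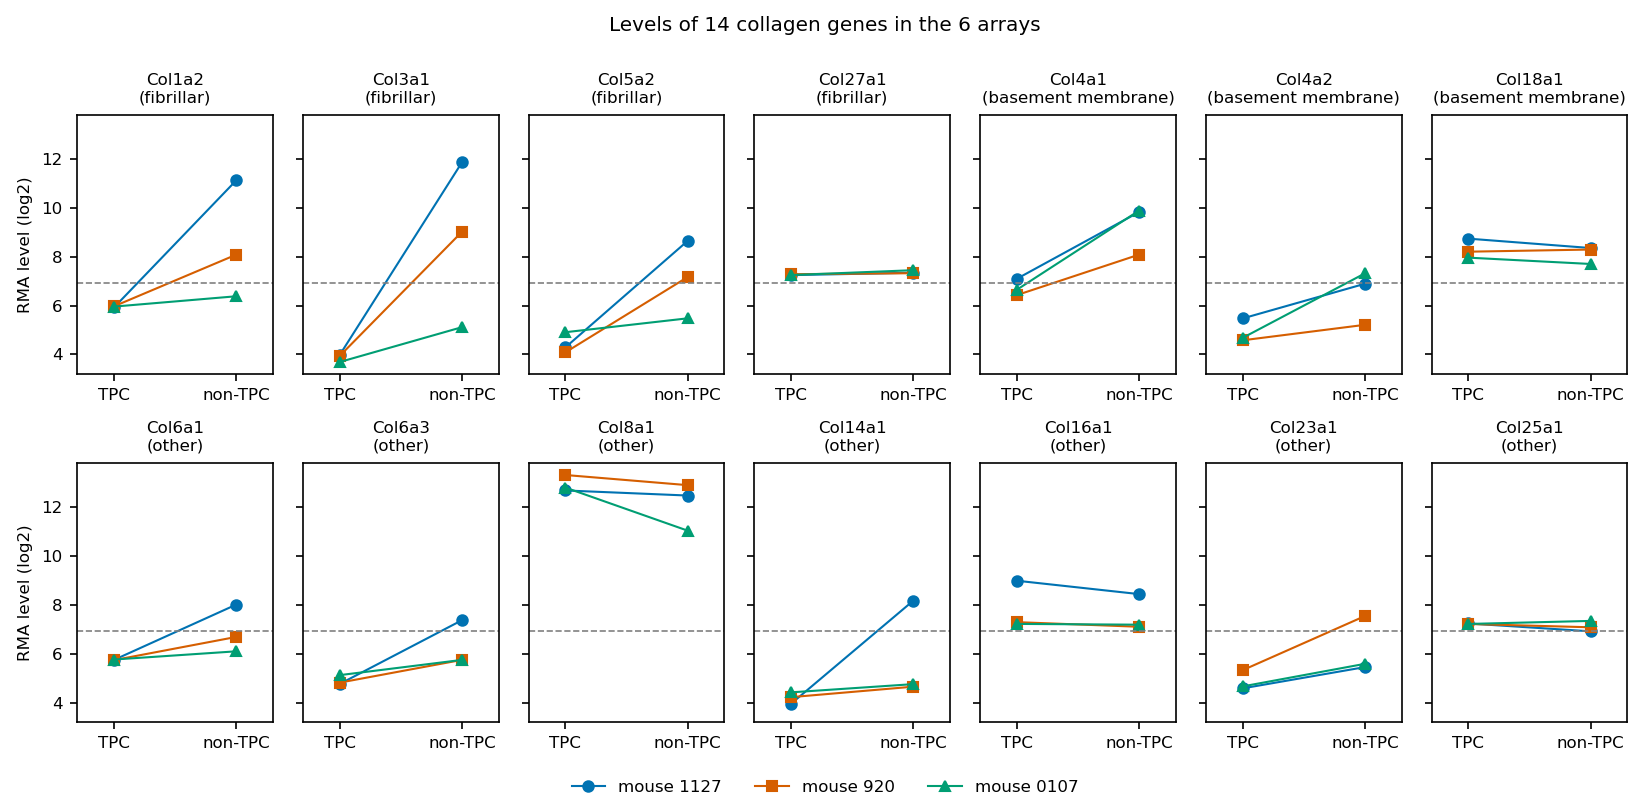
RMA level (log2) of 14 collagen genes in TPC (left) and non-TPC (right) arrays, with a line for each of the 3 mice and the median level of all genes, 6.91, dashed. TPC levels of Col1a2, Col3a1 and Col6a1 nearly coincide across mice while non-TPC levels fan out, and Col8a1 lies above the rest in both fractions.

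The 3 chains of type VI collagen, a beaded filament close to cells, stood lower in TPCs of all mice at their brightest probe sets. Col6a1 was at 5.74, 5.74 and 5.76 in TPCs, against 8.004, 6.68 and 6.10 in non-TPCs of mice 1127, 920 and 0107. Col6a3 was at 4.76, 4.82 and 5.12 in TPCs, against 7.37, 5.75 and 5.75 in the non-TPCs. For both chains the fractions did not overlap, and mouse 1127 had the widest gap. Their mean differences were -1.18 (SE 0.45, adjusted p = 0.734) and -1.38 (SE 0.44, adjusted p = 0.625). Without both arrays of mouse 1127 they were -0.64 and -0.78, and without its non-TPC array alone -0.64 and -0.84. Col6a2, a neighbour of Col6a1, lay just outside a mean difference of 1, at -0.99 (adjusted p = 0.805), and also did not overlap. A second Col6a2 probe set, at a mean of 6.28, differed by -0.68, 0.09 and 0.19 in mice 1127, 920 and 0107. The value of Col6a2 thus depends on the probe set chosen. Col14a1, which decorates fibrils as a fibril-associated collagen, was at 3.96, 4.22 and 4.42 in TPCs and 8.17, 4.65 and 4.76 in non-TPCs of mice 1127, 920 and 0107. Only the non-TPCs of mouse 1127 were bright, with a difference of -4.21 there and -0.43 and -0.34 in the other mice. Its mean difference was -1.66 (SE 0.91, adjusted p = 0.864), and -0.38 without mouse 1127 or -0.50 without its non-TPC array. Dimmer Col14a1 probe sets, at means of 4.63 and 4.37, differed by -0.01 and -0.59. The average of the Col14a1 probe sets differed by -0.75.

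The transmembrane collagen Col23a1, which can be shed from the cell surface, had its widest gap in mouse 920. It was at 4.58, 5.32 and 4.66 in TPCs, against 5.45, 7.54 and 5.58 in non-TPCs of mice 1127, 920 and 0107. The fractions did not overlap. The mean difference was -1.33 (SE 0.56, adjusted p = 0.773), and -0.66 with the non-TPCs of mouse 920 left out. A second probe set of nearly the same brightness differed by -1.49.

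Col8a1, a short-chain network collagen known from vessel wall and cornea, was very bright in both fractions and was higher in TPCs of every mouse, without passing the test. It was at 12.66, 13.29 and 12.78 in TPCs, against 12.45, 12.88 and 11.02 in non-TPCs of mice 1127, 920 and 0107. The fractions overlapped, and the non-TPCs of mouse 0107 stood lowest. The difference was 0.79 (SE 0.48, 95% interval -0.34 to 1.93, limma adjusted p = 0.873), and within mice it was 0.21, 0.41 and 1.76. Without both arrays of mouse 0107 it was 0.31, and 0.24 without its non-TPC array alone. All 3 Col8a1 probe sets gave similar differences of 0.79, 0.80 and 0.76. Its partner chain Col8a2 was dim, at a mean of 3.78, with a difference of -0.05.

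A pair of further chains above the median level were close between fractions. Col16a1, a fibril-associated collagen, was at 8.98, 7.29 and 7.21 in TPCs and 8.43, 7.10 and 7.18 in non-TPCs of mice 1127, 920 and 0107. Both fractions of mouse 1127 were high. The difference was 0.26 (95% interval -1.11 to 1.62, adjusted p = 0.957), and -0.32 without the TPC array of mouse 1127. Col25a1, a transmembrane collagen of neurons, was at 7.23, 7.21 and 7.21 in TPCs and 6.91, 7.08 and 7.34 in non-TPCs of mice 1127, 920 and 0107. The fractions overlapped and the difference was 0.11 (95% interval -0.24 to 0.47, adjusted p = 0.928).

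The 23 members not named by level or size had mean differences between -0.99 and 0.45, of which 20 were under 0.5 in size, with adjusted p between 0.805 and 0.977. All of them lay below the median level of all genes, as did 30 of the 37 members. Among them, Col9a2, a fibril-associated cartilage chain, had the highest value, with a difference of 0.45, and Col19a1 differed by 1.19 in mouse 1127 and by -0.04 and -0.14 in mice 920 and 0107. Col7a1, the anchoring fibril chain, Col9a3, Col10a1, Col12a1, Col13a1 and Col20a1 had mean differences between -0.19 and 0.26.

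**Figure D3:**
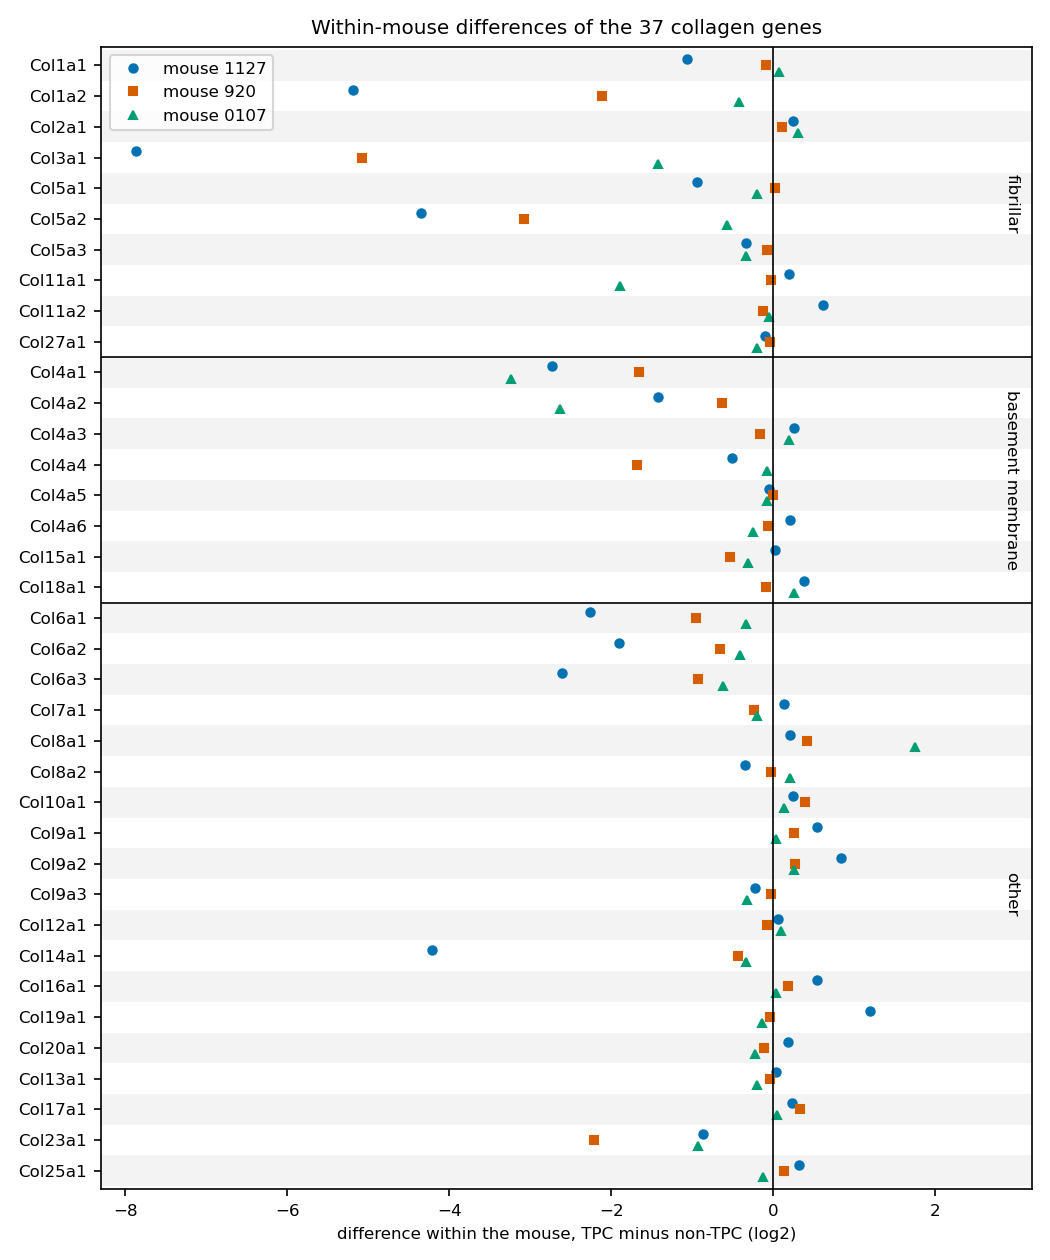
Difference within each mouse (TPC minus non-TPC, log2) for the 37 collagens, by class, with a marker for each mouse. Mouse 1127 reaches -7.87 for Col3a1 and -4.21 for Col14a1, mouse 0107 reaches -3.23 for Col4a1 and 1.76 for Col8a1, and most other chains sit near 0.

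The low chains thus divided by mouse. Of the 9 with a mean difference of -1 or less, 6 had the largest gap in mouse 1127 (Col1a2, Col3a1, Col5a2, Col6a1, Col6a3 and Col14a1), 2 in mouse 0107 (Col4a1 and Col4a2) and 1 in mouse 920 (Col23a1). Each mouse gave 1 array per fraction, so the differences between mice were not tested. Differences of -1 or less were found for 10 members in mouse 1127 (4.23% of all genes), 6 in mouse 920 (2.87%) and 4 in mouse 0107 (4.27%). For the 9 chains the SD over 3 arrays was 0.01 to 0.49 in TPCs and 0.94 to 3.38 in non-TPCs, and 28 of all 37 members (75.7%) varied less among TPC than among non-TPC arrays, against 67.1% of all genes.

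Markers of other cell types also differed between the fractions, and their part in the differences was not tested. Of 14 fibroblast markers 13 were measured, and 9 were lower in TPCs of all 3 mice, against 13.8% of all genes. The median difference of the list was -2.66, -0.47 and -0.19 in mice 1127, 920 and 0107, the order seen for Col3a1, Col1a2 and Col6a3. The mesothelial and leukocyte medians below had that order too, so it is not particular to fibroblast markers. The summed linear signal of the fibroblast markers was 3673, 1888 and 2516 in TPCs and 19578, 6537 and 3957 in non-TPCs of these mice. Pdgfra, a growth factor receptor of fibroblasts, was at 4.60, 4.31 and 4.63 in TPCs and 6.43, 4.98 and 8.11 in non-TPCs, while Dcn, a collagen-binding proteoglycan, was bright in both, at 11.58, 10.36 and 10.94 in TPCs and 13.82, 12.38 and 11.51 in non-TPCs. Pdgfra was highest in non-TPCs of mouse 0107, unlike Col3a1, Col1a2 and Col5a2.

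Of 10 endothelial markers, 5 were lower in TPCs of all 3 mice, against 13.8% of all genes. The median of the list was -0.67, -0.03 and -1.67 in mice 1127, 920 and 0107, the order seen for Col4a1 and Col4a2. The pericyte and smooth muscle median below had that order too, so this order of medians is not particular to endothelial markers. Acta2 and Rgs5 of that list, given below, instead had their widest gaps in mouse 1127. The summed signal of the endothelial markers was 483.9, 449.9 and 479.5 in TPCs and 1028, 507 and 2131 in non-TPCs. Cdh5, the adhesion molecule of vessel lining, was at 4.55 to 4.92 in TPCs and 6.12, 4.88 and 6.89 in non-TPCs of mice 1127, 920 and 0107, whereas Pecam1 was below the first quartile in all arrays, at 4.04 to 4.24 in TPCs and 4.01 to 4.33 in non-TPCs. In mouse 920 the endothelial median was close to 0 while Col4a1 still differed by -1.65.

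Of 7 alveolar type 1 markers, 5 were lower in TPCs of all mice, against 13.8% of all genes. These 7 markers had their lowest median in mouse 920 (-1.38, -1.83 and -0.97 in mice 1127, 920 and 0107), as for the brightest probe sets of Col23a1 and Col4a4. Their summed signal was 873, 1108 and 959 in TPCs and 2669, 4622 and 2414 in non-TPCs. Ager, a receptor abundant in these flat gas-exchange cells, was at 7.82, 8.33 and 7.55 in TPCs and 9.41, 10.97 and 8.52 in non-TPCs, and Hopx, a homeodomain protein, at 8.50, 8.80 and 8.99 in TPCs and 8.94, 10.05 and 8.85 in non-TPCs.

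Against 13.8% of all genes, 5 of 9 pericyte and smooth muscle markers were lower in all mice. Their median was -0.13, -0.07 and -0.25 in mice 1127, 920 and 0107, with a summed signal of 572, 533 and 537 in TPCs and 2494, 713 and 746 in non-TPCs. Acta2, smooth muscle actin, was at 6.01, 6.22 and 6.28 in TPCs and 9.32, 6.86 and 6.68 in non-TPCs, while the smooth muscle myosin Myh11 stayed at 4.82 to 4.97 throughout. Rgs5 of this list, named after its values were seen, differed by -6.20, -3.10 and -0.78 in mice 1127, 920 and 0107. Mcam differed by -0.61, -0.23 and -1.29, so the small medians hide different orders of mice. Mesothelial markers had medians of -1.25, -0.96 and -0.23 over 6 genes, and leukocyte markers -1.74, -1.27 and -1.14 over 5 genes, in the same order of mice. Msln and Upk3b, of the mesothelium, were at 4.98 to 5.93 and 5.04 to 5.29 in TPCs and at 5.81 to 6.81 and 5.24 to 6.13 in non-TPCs. Of the marker lists, 1 gene passed the test, the mesothelial Gpm6a, named after its values were seen. It was at 3.39, 3.43 and 3.96 in TPCs and 7.89, 8.14 and 9.60 in non-TPCs of mice 1127, 920 and 0107 (difference -4.95, limma adjusted p = 0.0338). Gpm6a did not follow the rest of its list. Its widest gap, -5.64, was in mouse 0107, where Msln, Upk3b, Wt1, Lrrn4 and Krt19 differed by 0.12, -0.10, -0.25, -0.20 and -0.27. With the replicate block the leukocyte marker Lcp1 also passed (difference -2.20, adjusted p = 0.0333, against 0.169 without the block). Ptprc and Cd52, of leukocytes, were at 5.94 to 7.44 and 6.58 to 7.30 in TPCs and at 7.91 to 9.16 and 7.46 to 8.59 in non-TPCs. The 6 chondrocyte markers, listed because several chains are known from cartilage, had medians of 0.11, 0.09 and -0.10. Acan and Sox9 were at 5.56 to 5.80 and 4.91 to 4.99 in TPCs and at 4.98 to 5.72 and 4.87 to 5.31 in non-TPCs. Among them Cnmd, named after its values were seen, was at 8.16 in non-TPCs of mouse 0107, the array in which Col11a1 stood out, and at 4.18 in its TPCs. In mouse 1127 Cnmd also differed, by -1.94, whereas Col11a1 differed by 0.19. The other chondrocyte markers, Acan, Sox9, Matn1, Matn3 and Comp, differed by -0.02, -0.19, 0.05, -0.20 and 0.22 in mouse 0107. The 8 neuroendocrine markers measured had medians of 0.64, 0.15 and 0.24 and a summed signal of 17204, 13723 and 15837 in TPCs and 13372, 14216 and 11352 in non-TPCs of mice 1127, 920 and 0107.

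**Figure D4:**
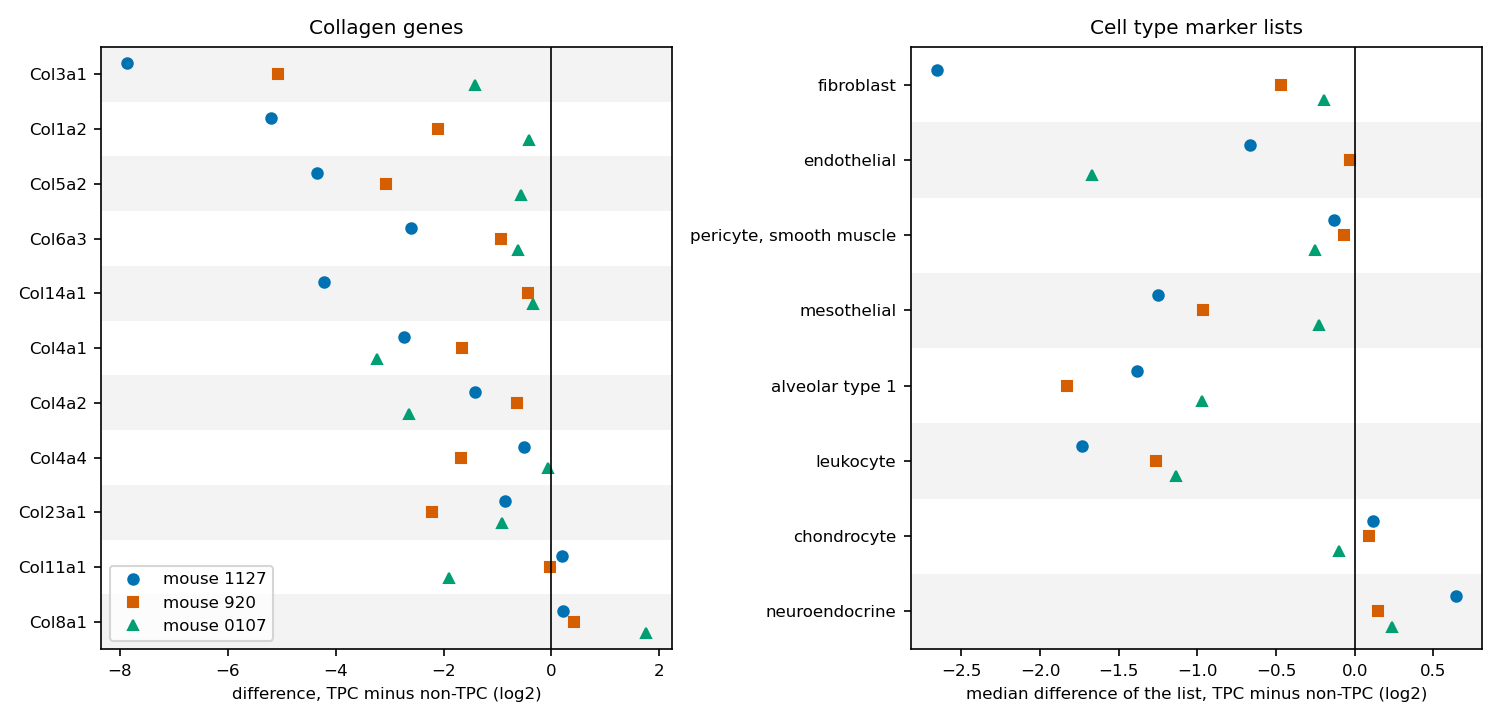
Left, difference within each mouse (TPC minus non-TPC, log2) for 11 collagens; right, median difference of 8 cell type marker lists in the same mice. Fibroblast markers are lowest in mouse 1127 (-2.66), endothelial markers in mouse 0107 (-1.67) and alveolar type 1 markers in mouse 920 (-1.83). The medians of mesothelial and leukocyte markers are also lowest in mouse 1127, and those of pericyte, smooth muscle and chondrocyte markers in mouse 0107. Acta2 and Rgs5, of the pericyte and smooth muscle list, differed most in mouse 1127.

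Genes for collagen synthesis were considered next, from the endoplasmic reticulum to the matrix. Of 29 enzymes and chaperones 26 were measured, 0 passed the limma test over all genes, and the median difference was -0.16, beside 0.04 for all genes. At an unadjusted p under 0.05, 2 were lower (7.69%, against 4.35% of all genes) and 1 was higher (3.85%, against 2.12%). Plod2, the lysyl hydroxylase that prepares telopeptides for cross-links, was at 6.44, 5.88 and 6.14 in TPCs, against 8.15, 7.04 and 8.01 in non-TPCs of mice 1127, 920 and 0107. The fractions did not overlap, and the gap exceeded 1 in every mouse (difference -1.58, SE 0.32, adjusted p = 0.292, and 0.0863 with the replicate block).

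Serpinh1, the collagen chaperone HSP47, was at 6.43, 5.81 and 6.30 in TPCs, against 8.41, 7.30 and 6.62 in non-TPCs of mice 1127, 920 and 0107. Again the fractions did not overlap, and the gap was widest in mouse 1127, as for Col3a1 (difference -1.26, adjusted p = 0.672). Lox, the lysyl oxidase that starts cross-linking and is also in the fibroblast list, was at 5.54, 5.37 and 5.48 in TPCs and 8.41, 6.43 and 5.68 in non-TPCs (difference -1.38, adjusted p = 0.81). Tll1, a protease related to the procollagen C-proteinase Bmp1, was dim and higher in TPCs, at 5.22, 5.13 and 5.25 against 4.89, 4.87 and 4.59 in non-TPCs (difference 0.42, adjusted p = 0.628). Some general enzymes of the secretory pathway, named after their values were seen, had mean differences near 0. The prolyl hydroxylase subunits P4ha1 and P4hb differed by -0.15 and -0.08, and the prolyl isomerase Ppib by -0.02. Within mice 1127, 920 and 0107, P4ha1 differed by -0.74, -0.11 and 0.40. Other secretory genes of the list varied more. Sec23a differed by -0.61 on average and by -1.25 in mouse 1127. Mia3 differed by 0.23 on average and by 1.10 in mouse 0107.

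Of 10 collagen receptors 9 were measured and 0 passed the test, with a median difference of 0.00, beside 0.04 for all genes, and 1 was lower at an unadjusted p under 0.05 (11.1%, against 4.35% of all genes). Itga1, the integrin subunit that binds type IV collagen, was dim and lower in TPCs, at 3.87, 4.27 and 3.92 against 5.59, 4.86 and 5.55 in non-TPCs of mice 1127, 920 and 0107 (difference -1.32, SE 0.24, adjusted p = 0.244). Its gap, like those of Col4a1 and Col4a2, was narrowest in mouse 920. The collagen-binding kinase Ddr1, found on epithelial cells, was at 10.05, 9.81 and 10.01 in TPCs and 9.42, 9.66 and 9.76 in non-TPCs, without overlap (difference 0.34, adjusted p = 0.784). Its mesenchymal relative Ddr2 differed by -0.31 (adjusted p = 0.877), and the platelet collagen receptor Gp6, which was dim, by 0.30 (adjusted p = 0.784). Itgb1, the partner of Itga1, was at 8.46, 8.63 and 7.40 in TPCs and 8.44, 8.81 and 7.24 in non-TPCs.

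Several chains are chromosomal neighbours, and 6 such pairs were found among the members. Their differences are given at the brightest probe sets. Col3a1 and Col5a2 (-4.79 and -2.66), Col4a1 and Col4a2 (-2.54 and -1.56) and Col6a1 and Col6a2 (-1.18 and -0.99) were lower together. Col4a3 and Col4a4 (0.10 and -0.75) were not. Col4a5 and Col4a6 (-0.04 and -0.04) and Col9a1 and Col19a1 (0.28 and 0.34) were near 0. Of the 37 members 24 had more than 1 probe set, 73 probe sets in all. Only 2 of the 36 probe sets after the brightest were brighter than the median gene (in Col8a1 and Col18a1), and both had the sign of the brightest. The second probe sets gave -1.99 for Col1a2, -1.96 for Col3a1 and -1.07 for Col5a2, smaller in size than the brightest, while that of Col23a1 was larger in size (-1.49). In mouse 0107 the second probe sets of Col1a2, Col3a1 and Col5a2 differed by -0.22, -0.19 and 0.26. With each of 34945 probe sets tested on its own, an alternative chosen after the data were seen, 0 of the 73 passed, against 0.0401% of all probe sets. At an unadjusted p under 0.05, 11 were lower (15.1%, against 3.69% of all probe sets) and 0 were higher (against 2.1%).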

How the data were processed

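Total RNA of sorted cells was amplified and labelled with biotin for 1-colour Affymetrix arrays, per the labels' protocols. The authors' deposited values are RMA probe set levels, per the submitters' processing notes, and the log2 scale was read from the deposited values. The sources used here give no RMA version, probe set definition, log base or genome build. Arrays carry no read depth.

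Of 45101 probe sets, 34945 were annotated to 1 gene symbol, 932 to several and 9160 to none listed, and 64 were controls. Entrez identifiers served to update symbols (RefSeq, GRCm38.p6), and the brightest probe set per gene was kept. Titles gave fraction and mouse. The main test was limma (version 3.58.1, R 4.3.3, two-sided) with fraction as the only term, Benjamini-Hochberg over 18193 genes, threshold 0.05, and no filter. The procedure was tested on simulated data. Both fractions come from the same animals, so mouse numbers pair the samples. Deviations from the fraction means correlated at 0.30, 0.46 and 0.36 within mice 1127, 920 and 0107. A replicate block for mouse (2 residual degrees of freedom against 4), a random block (correlation 0.27), probe set averages, a level filter, median centring and left-out mice or arrays were alternatives.

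Values per array are given for 7 members above the median level of all genes and 7 dimmer ones with a mean difference of at least 1 in size and 1 sign in all 3 mice. Up to 4 genes of smallest p are named from the synthesis and receptor lists, and the leading 2 measured of each marker list. Insm1, Cnmd, Gpm6a, Lcp1, P4ha1, P4hb, Ppib, Sec23a, Mia3 and Itgb1 were added after their values were seen. The markers Matn1, Matn3, Comp, Wt1, Lrrn4, Krt19, Rgs5 and Mcam were added in the same way. Members and lists were chosen with earlier results of these data known. Sequences are from RefSeq (GRCm38.p6).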

Additional observations from a re-analysis of the deposited data

How the results depend on the processing

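No direction of the 9 chains with mean differences of -1 or less changed under any alternative, and neither of the synthesis and receptor lists had a gene past the threshold in any. With the mouse as a replicate block, 0 collagens passed and 10 had an unadjusted p under 0.05, against 6 without it, and beside the marker Lcp1 (adjusted p 0.0333 with the block, 0.169 without) the block changed no other call among the named genes and lists. The median of the other collagens, -0.05, was 0.02 without the TPCs of mouse 920, 0.01 without the non-TPCs of mouse 0107 and 0.009 after centring. Averaging the probe sets of a gene gave a basement membrane median of -0.37, where Col4a5 contributes through its second probe set, and the type IV chains alone gave -0.40. Restricted to genes brighter than the median, 7 members were tested, 2 had an unadjusted p under 0.05, and the medians were 0.11 for all, -1.34 for fibrillar, -1.18 for basement membrane and 0.26 for other collagens, since fewer genes enter. Leaving out mice or arrays gave 0 to 1 members past the threshold (Col4a1 or Col3a1, with the non-TPCs of mouse 920 or 0107 left out), 4 to 11 at an unadjusted p under 0.05 and a smallest adjusted p of 0.0282 to 1. The count of 4 came without both arrays of mouse 1127 or 920 or any 1 TPC array, 10 with the non-TPCs of mouse 1127 left out and 11 with those of mouse 0107 left out. Those fits without 1 array mix mouse with fraction. Col18a1 ranged from -0.0335 to 0.35 and Col16a1 from -0.32 to 0.69 in these fits, and the cause was not tested. Levels near the first quartile limit the size of differences in dim chains.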

Other observations

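Collagen chains with a probe set of their own beyond the 37 were all below the median level of all genes. Col22a1, at a mean level of 6.23, differed by -0.26 (95% interval -0.66 to 0.14), and Col6a5, at 3.66, by -0.24 (-0.67 to 0.18). Col24a1 differed by 0.13, Col26a1 by 0.04 and Col6a4 by 0.05, with limma adjusted p between 0.877 and 0.97 for the 5 genes.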
